A study of Homo sapiens with 8 samples.

Results

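The interferon-stimulated and antigen presentation genes described here are 38 genes listed by symbol, of which 37 were among the 14668 genes of the count table; counts of XAF1 were not analysed here, and it enters only the promoter search. They were read in T3M4, an established human pancreatic cancer cell line. METTL13 methylates the translation elongation factor eEF1A, and the study read mRNA abundance and translation in cells in which it was targeted. The sgMETTL13 cells expressed a guide RNA that targets METTL13, and the sgControl cells expressed a non-targeting guide. All cells of both arms spent 18 h without serum and then 2 h in 10% FBS. mRNA was measured by poly(A) RNA-seq, and ribosome profiling measured footprints, the mRNA fragments that ribosomes shield from a nuclease. The 4 groups were sgMETTL13 footprints, sgControl footprints, sgMETTL13 mRNA and sgControl mRNA, each with 2 libraries. The labels name no clone and leave unsaid whether the 2 libraries of a group are separate cultures. P-values therefore reflect the spread between libraries, which may be technical.

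Interferons bind cell surface receptors whose kinases phosphorylate STAT proteins. These proteins join IRF9, enter the nucleus and bind the interferon-stimulated response element in promoters, which turns on genes that block viral entry, degrade RNA or hold viral RNA in complexes. The same signal raises class I antigen presentation, in which the proteasome cuts proteins, the TAP transporter moves the peptides into the endoplasmic reticulum, and a heavy chain paired with beta-2 microglobulin carries them to the cell surface for T cells to read. Cancer cell lines often hold a basal level of these genes without added interferon.

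METTL13 itself stood at 20.1 and 26.2 footprint CPM (counts scaled to library size by TMM factors) in sgMETTL13, against 65.2 and 57.8 CPM in sgControl. Its mRNA stood at 25.2 and 35.1 CPM in sgMETTL13 and at 89.7 and 71.4 CPM in sgControl. Library totals ran from 6063885 to 9837253 counts in footprints and from 20860953 to 48353722 in mRNA. The 2 sgMETTL13 mRNA libraries stood apart from each other: the gap between replicates had an SD over 10446 genes of 0.88 on the log2 scale, against 0.36 between the sgControl mRNA libraries, 0.274 between the sgMETTL13 footprint libraries and 0.324 between the sgControl footprint libraries. All 8 epithelial markers were present, and their summed footprints were 1690 and 1770 CPM in sgMETTL13 and 1660 and 1750 CPM in sgControl. Leukocyte markers (6 of 10 in the table) summed to between 1.54 and 2.52 footprint CPM in the 4 libraries, mostly CD68, with PTPRC at 0.102 and 0 CPM in sgMETTL13 and at 0 in both sgControl libraries. The markers of professional antigen-presenting cells (3 of 4 in the table) summed to between 0.242 and 0.61 footprint CPM. Fibroblast markers (6 of 7 in the table) summed to 21.7 and 21.6 footprint CPM in sgMETTL13 and to 25.3 and 22.2 CPM in sgControl. Nearly all of this was COL1A1, at 21.5 and 19.9 CPM in sgMETTL13 and 24.1 and 21.9 CPM in sgControl.

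The interferon-stimulated response element was common in the promoters of these genes. The list holds interferon-stimulated genes, which this element turns on, so its share describes the list and is no test of it. RefSeq promoter windows (build GRCh38.p14, 250 bases before to 50 after a gene's start) were at hand for 30 of the 38 genes. The response element was searched on both strands as GAAA, any 2 bases and GAAA again, and overlapping matches were counted separately. It was found in 22 of the 30 genes (73.3%), against 1195 of all 27305 genes with a window (4.38%). The gamma-activated site, the sequence bound by STAT pairs, was searched as TTCNNNGAA, which reads the same on both strands. It was found in 10 of the 30 genes (33.3%), against 9.38% of all genes with a window. The 2 motifs overlapped in IFITM1, IFI27 and BST2.

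Upstream regions are shown because B2M and IFIT1 had the smallest adjusted p among the genes whose footprints rose and IFI6 held 3 separate matches. Each covers the 250 bases before the start, 5′ to 3′ on the gene's own strand, with the matches in capitals. The B2M region is chr15:44711267-44711516 on the plus strand, and its capitals join 2 overlapping matches. The IFIT1 region is chr10:89392373-89392622 on the plus strand, and the IFI6 region is chr1:27672193-27672442 on the minus strand.
B2M: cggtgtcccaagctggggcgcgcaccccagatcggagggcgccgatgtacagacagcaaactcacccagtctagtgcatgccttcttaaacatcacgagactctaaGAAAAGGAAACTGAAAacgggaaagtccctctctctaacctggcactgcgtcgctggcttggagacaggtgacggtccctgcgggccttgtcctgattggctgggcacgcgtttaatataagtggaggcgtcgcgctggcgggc
IFIT1: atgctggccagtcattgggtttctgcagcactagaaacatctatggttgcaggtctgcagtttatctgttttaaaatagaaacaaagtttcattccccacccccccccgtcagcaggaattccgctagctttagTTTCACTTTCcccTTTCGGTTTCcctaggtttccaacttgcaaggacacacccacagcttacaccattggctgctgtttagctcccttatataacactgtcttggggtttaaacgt
IFI6: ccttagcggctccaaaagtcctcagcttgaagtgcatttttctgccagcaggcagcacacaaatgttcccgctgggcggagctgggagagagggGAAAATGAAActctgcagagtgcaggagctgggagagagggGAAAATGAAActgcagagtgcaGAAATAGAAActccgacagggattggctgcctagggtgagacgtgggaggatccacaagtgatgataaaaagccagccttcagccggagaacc

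Windows of 30 bases around a match are shown for the other genes past the footprint test that had one, so that the spelling of the element can be compared between genes that rose and the 1 that fell. IFIT5 had 3 matches, of which the farthest from the start is shown (chr10:89414513-89414542, plus strand, 45 bases upstream). IFI44 (chr1:78649761-78649790, plus strand), SAMD9 (chr7:93118096-93118125, minus strand) and PARP14 (chr3:122680800-122680829, plus strand) had 1 each. IFITM3, which rose, and IFITM1, which fell, are neighbours on chromosome 11 with 2 matches each. The IFITM3 windows are chr11:320893-320922 and chr11:320876-320905 on the minus strand, and the IFITM1 windows are chr11:313990-314019 and chr11:314024-314053 on the plus strand.
IFIT5: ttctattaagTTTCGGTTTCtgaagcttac
IFI44: gcacactgagTTTCAGTTTCctttctctga
SAMD9: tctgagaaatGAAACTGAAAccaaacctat
PARP14: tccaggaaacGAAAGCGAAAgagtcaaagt
IFITM3 far: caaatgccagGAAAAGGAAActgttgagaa
IFITM3 near: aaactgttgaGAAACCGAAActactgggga
IFITM1 far: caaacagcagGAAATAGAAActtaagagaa
IFITM1 near: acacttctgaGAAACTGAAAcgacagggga

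In 1 window per gene, the 22 genes held 40 matches, and 39 of them began before the start. The median match began 99 bases upstream and the farthest 164, with 26 on the gene's strand and 14 on the other. A second match was found in 15 of the 22 genes. The 8 genes with a window and no response element were HLA-B, HLA-C, STAT2, IRF1, IRF9, OAS1, IFI35 and XAF1, and of these IRF1, IRF9, OAS1 and IFI35 had a gamma-activated site. A missing match says only that these letters are not in the window. Among genes with a window, the element was found in 8 of the 9 whose footprints rose, in 1 of the 2 whose footprints fell and in 12 of the 17 that did not pass the test.

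Footprints of these genes were more often higher in sgMETTL13 than in sgControl, with exceptions in the same families. Of the 36 genes that passed the expression filter in footprints, 11 rose (30.6%) and 2 fell (5.56%) at an adjusted p below 0.05, while 8.94% of all 10714 genes tested rose and 12.0% fell. The rises were B2M, HLA-B, IRF7, IFIT1, IFIT5, IFITM3, MX2, IFI6, IFI44, SAMD9 and PARP14, and the falls were IFITM1 and HLA-C. The median log2 fold change was 0.28 over the 36 genes and 0.01 over all genes tested. Both sgMETTL13 libraries lay on the same side of both sgControl libraries in 30 of the 36 genes (83.3%), above in 21 and below in 9, against 64.1% of all genes tested (32.0% above and 32.0% below). The list was drawn up with earlier results of these data known, so these counts describe it and are no test of it. The counts that follow take rises and falls together, and the excess of rises was not kept in every fit with a library left out. The count rested on single libraries: it was 12 of 37 genes without sgControl replicate 1 and 4 of 37 without sgControl replicate 2, beside 27.4% and 7.49% of all genes. It was 5 of 36 without sgMETTL13 replicate 1 and 3 of 36 without sgMETTL13 replicate 2, beside 14.7% and 6.44% of all genes. DESeq2 called 5 of the 36 genes (13.9%), 4 higher and 1 lower, near the 13.8% of all genes tested. A model over all 8 libraries called 0 of the 36 and 0 of all genes.

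**Figure D1:**
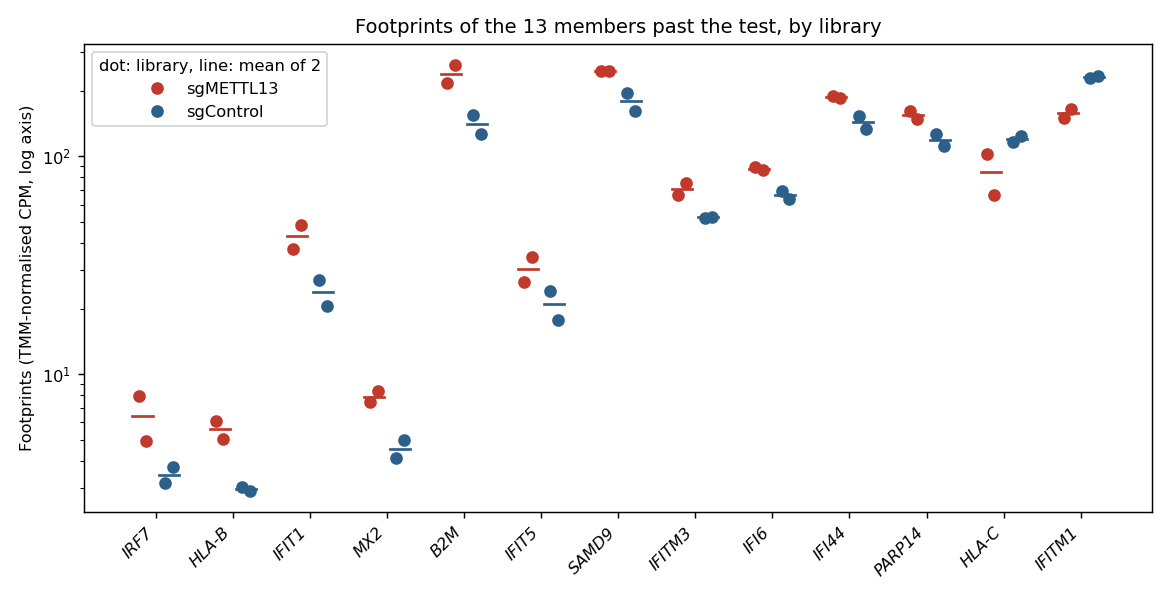
Footprints of the 13 genes past the test in each library. The y axis is TMM-normalised CPM on a log axis, dots are libraries and lines are means of 2 libraries, with sgMETTL13 left of sgControl for each gene. Both sgMETTL13 dots lie above both sgControl dots in 11 genes and below them in IFITM1 and HLA-C. The genes were picked by the test on these same libraries, so this separation adds nothing to it. The arms were apart in 64.1% of all genes tested.

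The light chain of class I molecules and the heavy chain HLA-B rose, and the heavy chain HLA-C fell. B2M, the light chain shared by all class I molecules, had 218 and 262 CPM of footprints in sgMETTL13, against 154 and 126 CPM in sgControl. Every sgMETTL13 library lay above every sgControl library, and B2M rose with a log2 fold change of 0.77 (SE 0.137, adjusted p = 0.000226). B2M was the 1 gene of the 13 that kept its call whichever library was left out, at 0.63 to 0.93 (adjusted p 1.55e-07 to 0.0181). In a bulk sample, more cells with a transcript and more of it per cell cannot be told apart.

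HLA-B, a classical heavy chain, had 6.1 and 5.05 footprint CPM in sgMETTL13 and 3.02 and 2.91 CPM in sgControl. It rose by a log2 fold change of 0.91 (SE 0.303, adjusted p = 0.0315), a call lost with any library left out. HLA-C, another classical heavy chain, had 102 and 66.3 CPM in sgMETTL13, against 116 and 125 CPM in sgControl. The sgMETTL13 libraries were both lower and far from each other, and HLA-C fell by 0.51 on the log2 scale (SE 0.157, adjusted p = 0.0203), or by 0.23 without sgMETTL13 replicate 2 (adjusted p = 0.557). HLA-E, a nonclassical chain read by natural killer cells, had 82.5 and 56.3 CPM in sgMETTL13 and 84.4 and 86.2 CPM in sgControl, and did not pass the test (log2 fold change -0.30, SE 0.155, adjusted p = 0.176). Class I heavy chains share long stretches of sequence, and how reads that match several genes were counted is not stated, so the split between them is uncertain.

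Of the peptide-loading genes, none passed the footprint test. TAP2, a subunit of the peptide transporter, had 39.7 and 41.5 CPM in sgMETTL13 and 35.8 and 29.1 CPM in sgControl, a log2 fold change of 0.32 (adjusted p = 0.160). TAPBP, the tapasin that bridges the transporter to class I molecules, had 17.1 and 16.3 CPM in sgMETTL13 and 20.7 and 22.7 CPM in sgControl, a log2 fold change of -0.38 (adjusted p = 0.142). The arms of both genes were apart, in opposite directions. TAP1, the other transporter subunit, failed the expression filter, with 11 and 10 counts in sgMETTL13 and 4 and 0 counts in sgControl.

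Among the transcription factors of the pathway, 1 of 4 rose (25%), a rough share of a small group, against 8.94% of all genes tested. IRF7, which drives interferon transcription, had 7.93 and 4.94 footprint CPM in sgMETTL13, against 3.15 and 3.76 CPM in sgControl. The arms did not overlap, though sgMETTL13 replicate 2 lay close to sgControl, and IRF7 rose by a log2 fold change of 0.92 (SE 0.306, adjusted p = 0.0315). With a library left out, this change ran from 0.52 to 1.21, and the call was kept in 1 of 4 such fits. IRF1, induced early by interferon gamma, had 44.0 and 54.2 CPM in sgMETTL13 and 40.7 and 36.9 CPM in sgControl, a log2 fold change of 0.34 that did not pass (SE 0.157, adjusted p = 0.124). STAT2, a partner in the factor that binds the response element, had 80.4 and 83.4 CPM in sgMETTL13 and 73.2 and 78.7 CPM in sgControl, at 0.11 (adjusted p = 0.610). IRF9, the DNA-binding subunit of that factor, had 25.1 and 27.0 CPM in sgMETTL13 and 28.7 and 29.9 CPM in sgControl, at -0.17 (adjusted p = 0.505). STAT2 and IRF9 each differed between the arms by less than 2 SE.

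The IFIT proteins bind foreign RNA ends, and 2 of the 4 genes rose (50%), again a rough share, against 8.94% of all genes tested. IFIT1, which recognises RNA caps that lack methylation, had 37.4 and 48.5 footprint CPM in sgMETTL13, against 27.1 and 20.5 CPM in sgControl. The sgMETTL13 libraries were both higher and IFIT1 rose by 0.84 (SE 0.176, adjusted p = 0.00117), a call kept in 3 of 4 fits with a library left out and missed without sgMETTL13 replicate 2 (0.64, adjusted p = 0.0561). IFIT5, which binds RNA ends with phosphates, had 26.4 and 34.4 CPM in sgMETTL13, against 24.1 and 17.8 CPM in sgControl. Its arms were close, with sgMETTL13 replicate 1 just above sgControl replicate 1, and it rose by 0.52 (SE 0.185, adjusted p = 0.0431). With a library left out, this change ran from 0.33 to 0.77, and the call was kept in 2 of 4 such fits. IFIT3, a partner that stabilises IFIT1, had 52.7 and 53.1 CPM in sgMETTL13 and 40.9 and 43.4 CPM in sgControl, at 0.33 (adjusted p = 0.112). IFIT2 had 55.9 and 42.4 CPM in sgMETTL13 and 47.9 and 50.8 CPM in sgControl, and its arms overlapped. All 4 IFIT genes lie inside the span that RefSeq gives LIPA, and whether the counting used strand is not stated.

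The IFITM proteins sit in membranes and block fusion of viruses with the cell, and here 2 neighbours on chromosome 11 moved apart. IFITM1 had 151 and 166 footprint CPM in sgMETTL13, against 229.9 and 235 CPM in sgControl. The arms were well separated and IFITM1 fell by 0.55 on the log2 scale (SE 0.127, adjusted p = 0.00255), a call kept in 3 of 4 fits with a library left out and missed without sgMETTL13 replicate 1 (-0.49, adjusted p = 0.0654). IFITM3 had 66.8 and 75.3 CPM in sgMETTL13, against 52.3 and 52.7 CPM in sgControl. It rose by 0.44 (SE 0.145, adjusted p = 0.0307), a call lost with any library left out. IFITM2 had 2.03 and 0.988 CPM in sgMETTL13 and 1.21 and 1.37 CPM in sgControl, with overlapping arms. The IFITM genes are close copies of each other, and RefSeq lists 9 pseudogene symbols of IFITM3, so their short footprints may have been shared or dropped.

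The oligoadenylate synthetase family takes part in the response to double-stranded RNA, and none of the 4 OAS genes passed. Their log2 fold changes were 0.38 for OAS1 (adjusted p = 0.107), 0.04 for OAS3 (adjusted p = 0.888), -0.21 for OAS2 (adjusted p = 0.441) and -0.24 for OASL (adjusted p = 0.196). Of the MX GTPases, which trap viral nucleocapsids, MX2 had 7.42 and 8.34 footprint CPM in sgMETTL13, against 4.11 and 4.96 CPM in sgControl. Both sgMETTL13 libraries were higher and MX2 rose by 0.81 (SE 0.268, adjusted p = 0.0302), a call lost with any library left out. MX1, its relative, had 66.8 and 72.5 CPM in sgMETTL13 and 58.7 and 65.8 CPM in sgControl, at 0.16 (adjusted p = 0.447).

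ISG15, a ubiquitin-like modifier, its protease USP18 and the exonuclease ISG20 did not pass. The log2 fold changes were 0.05 for ISG15 (adjusted p = 0.838), 0.45 for USP18 (adjusted p = 0.134) and -0.47 for ISG20 (adjusted p = 0.151). ISG15 had 78.0 and 83.3 footprint CPM in sgMETTL13 and 76.5 and 79.5 CPM in sgControl, with overlapping arms.

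Of the other 10 interferon-stimulated genes tested in footprints, 4 rose (40%) and none fell, while 8.94% of all genes tested rose and 12.0% fell. With 10 genes, this share is rough. SAMD9, an antiviral protein that can halt translation, had 246 CPM in both sgMETTL13 libraries, against 197 and 161 CPM in sgControl, and rose by 0.46 (SE 0.130, adjusted p = 0.0121). IFI44 had 189 and 186 CPM in sgMETTL13, against 154 and 134 CPM in sgControl, and rose by 0.38 (SE 0.130, adjusted p = 0.0345). In both genes the sgMETTL13 libraries were nearly equal and the spread lay in sgControl. IFI6, which protects cells from flavivirus replication, had 89.0 and 86.3 CPM in sgMETTL13, against 69.6 and 63.4 CPM in sgControl, and rose by 0.40 (SE 0.140, adjusted p = 0.0415). PARP14, an ADP-ribosyltransferase, had 162 and 148 CPM in sgMETTL13, against 127 and 112 CPM in sgControl, and rose by 0.38 (SE 0.133, adjusted p = 0.0425). These arms too were apart, and each of the 4 genes kept its call in 1 of 4 fits with a library left out, the fit without sgControl replicate 1.

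The remaining genes of that group ranged widely. Nearest to the threshold were IFI27, with 6 and 4.72 footprint CPM in sgMETTL13 against 7.98 and 9.58 CPM in sgControl (log2 fold change -0.70, adjusted p = 0.0512), and IFI44L, with 9.55 and 6.92 CPM in sgMETTL13 against 5.32 and 4.79 CPM in sgControl (0.70, adjusted p = 0.0591). Their arms were apart in opposite directions. IFIH1, the RNA sensor MDA5, stood at 0.34 (adjusted p = 0.0847), PARP9 at 0.18 (adjusted p = 0.338), IFI35 at -0.06 (adjusted p = 0.823) and BST2, the tetherin that holds virus particles at the surface, at -0.11 (adjusted p = 0.562). BST2 had 959 and 935 footprint CPM in sgMETTL13 and 910 and 1134 CPM in sgControl, with overlapping arms.

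**Figure D2:**
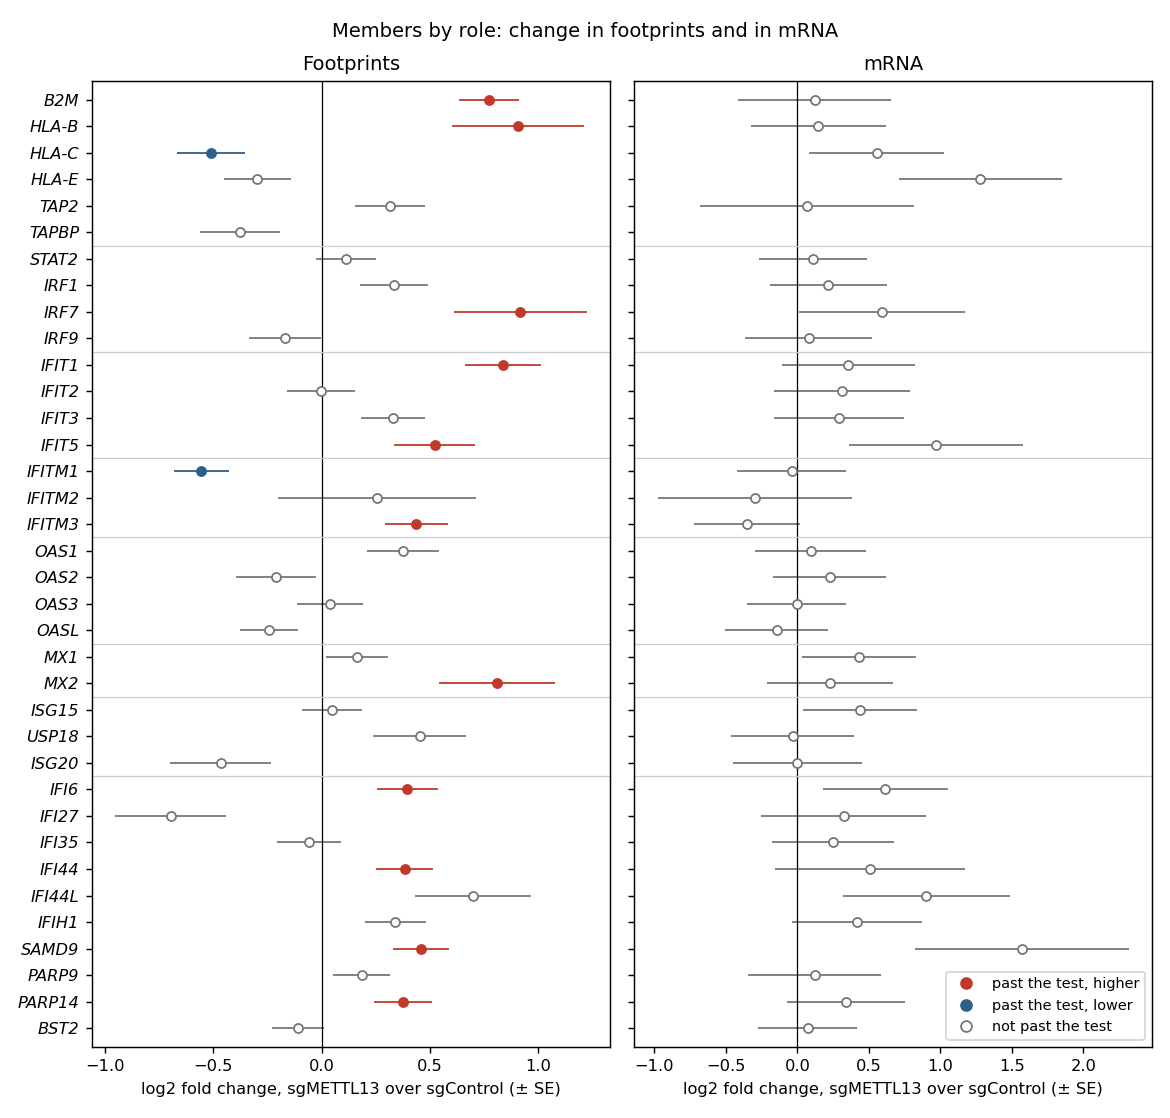
Log2 fold change of each gene, sgMETTL13 over sgControl, in footprints and in mRNA. Points are estimates and bars are 1 SE either way, and colour marks genes past the test. The 13 coloured points are all in the footprint panel, and the bars of the mRNA panel are longer, with SE from 0.345 to 0.749.

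The mRNA of 6 of these genes could not be read well; they lie in a stretch of chromosome 6 with few mRNA counts. In the interval from position 29000000 to the start of ITPR3 at 33621322, chosen after its values were seen, 56 genes had at least 1 footprint CPM, and 37 of them (66.1%) had an mRNA mean under 0.5 CPM. Outside it, that held for 306 of 10760 genes (2.84%). HLA-E averaged 77.4 footprint CPM and 0.526 mRNA CPM over the 4 libraries of each assay, TAP2 36.5 and 0.658 CPM, TAPBP 19.2 and 0.135 CPM, HLA-C 102 and 2.23 CPM, and HLA-B 4.27 and 1.26 CPM. TAP1 was at 0 in all 4 mRNA libraries, which allows up to 0.144 CPM in the shallowest. Neighbours outside the list showed the same: CLIC1, a chloride channel protein, averaged 55.5 footprint CPM and 0.0173 mRNA CPM, and the zinc transporter gene SLC39A7 25.1 footprint CPM with mRNA listed at 0, while ITPR3, at its far end, had 193 footprint CPM and 179 mRNA CPM. The cause was not tested. mRNA and efficiency values of the class I genes other than B2M therefore rest on few counts.

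**Figure D3:**
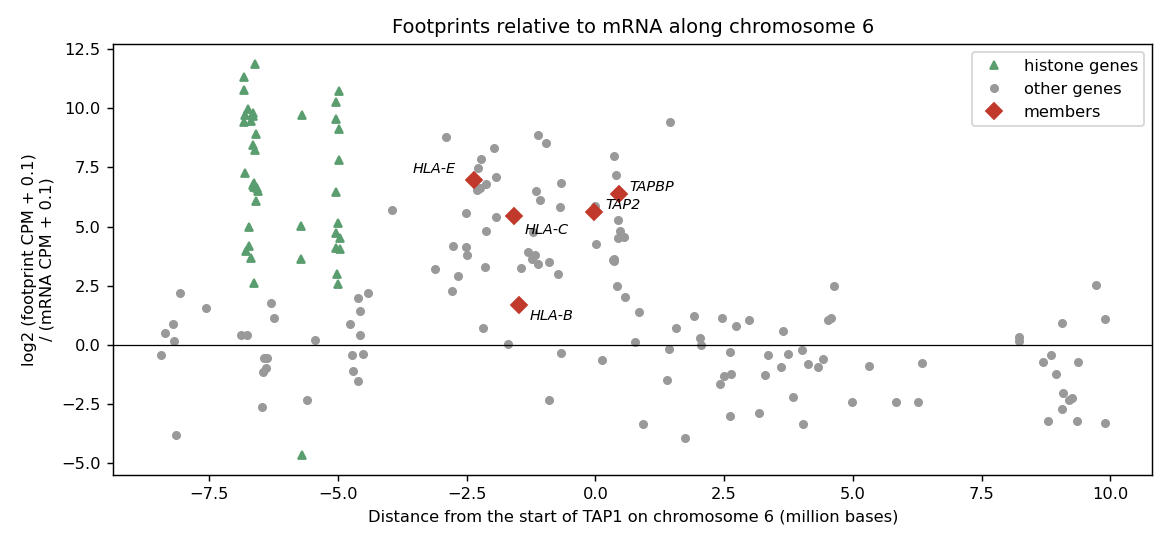
Footprints relative to mRNA for genes near TAP1 on chromosome 6. The x axis is the distance from the start of TAP1 in megabases and the y axis the log2 ratio of mean footprint to mean mRNA CPM, each plus 0.1; diamonds are genes of the list, triangles histone genes and circles others. The diamonds sit with most of their neighbours above 0, with a median of 4.66 over the 56 genes of the interval, and most histone genes also lie above 0, with H2BC12 below it at -4.67.

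In mRNA, none of the 35 genes tested passed edgeR's test, nor did any of the 12468 genes tested overall (0%), and DESeq2 called 0 as well; at an unadjusted p below 0.05 the numbers were 1 and 100. The median log2 fold change was 0.23 over the 35 genes and 0.04 over all genes tested. The arms did not overlap in 4 genes (11.4%), HLA-E, OAS2, MX1 and IFI6, a share near the 12.0% of all genes tested (5.11% higher and 6.84% lower). The smallest p belonged to HLA-E, with 0.929 and 0.549 CPM in sgMETTL13 and 0.242 and 0.385 CPM in sgControl (log2 fold change 1.28, SE 0.569, adjusted p = 1.0 by edgeR). B2M mRNA had 134 and 43.7 CPM in sgMETTL13 and 112 and 52.0 CPM in sgControl, so replicate 1 was high in both arms and the arms overlapped (0.12, SE 0.533).

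The spread lay largely between the 2 sgMETTL13 mRNA libraries. SAMD9 had 150.4 and 15.3 mRNA CPM in sgMETTL13, against 26.2 and 29.8 CPM in sgControl, so its sgMETTL13 libraries lay on either side of sgControl (log2 fold change 1.57, SE 0.749). IFI44 had 47.8 and 8.13 CPM in sgMETTL13 and 24.2 and 15.0 CPM in sgControl, again on either side (0.51, SE 0.665). IFIT5 had 39.6 and 9.15 CPM in sgMETTL13 and 14.2 and 10.7 CPM in sgControl (0.97, SE 0.608), and IFI44L 14.3 and 3.72 CPM in sgMETTL13 and 4.98 and 4.67 CPM in sgControl (0.90, SE 0.583). IRF7 went the other way, with 3.30 and 11.5 CPM in sgMETTL13 and 6.14 and 3.61 CPM in sgControl (0.59, SE 0.583). IFI6, like HLA-E, had both sgMETTL13 libraries higher, at 17.9 and 26.0 CPM against 14.6 and 13.97 CPM in sgControl (0.62, SE 0.440). HLA-C mRNA had 2.15 and 3.17 CPM in sgMETTL13 and 2.23 and 1.35 CPM in sgControl (0.55, SE 0.474), and HLA-B mRNA 1.04 and 1.62 CPM in sgMETTL13 and 1.10 and 1.3 CPM in sgControl (0.15, SE 0.474). The remaining genes past the footprint test overlapped in mRNA. IFIT1 had 41.8 and 21.0 CPM in sgMETTL13 and 28.1 and 21.0 CPM in sgControl, and PARP14 67.9 and 41.5 CPM in sgMETTL13 and 43.9 and 42.3 CPM in sgControl. IFITM1 had 88.6 and 145 CPM in sgMETTL13 and 105 and 136 CPM in sgControl, and MX2 3.87 and 3.89 CPM in sgMETTL13 and 2.74 and 3.9 CPM in sgControl.

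Which sgMETTL13 library was kept decided the mRNA calls. Without sgMETTL13 replicate 2, 7 of 35 genes rose (20.0%), against 18.7% of all genes tested, with SAMD9 at 2.43, IFIT5 at 1.66, HLA-E at 1.62, IFI44L at 1.56, IFI44 at 1.28 and IFIT1 at 0.76. Without sgMETTL13 replicate 1, IRF7 rose by 1.28 and IFI44 fell by 1.21, 2 of 35 genes in all (5.71%), against 0.214% of all genes tested. A gap of more than 1 on the log2 scale between the sgMETTL13 libraries was seen in 7 of the 35 genes, close to the 22.7% of all genes.

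**Figure D4:**
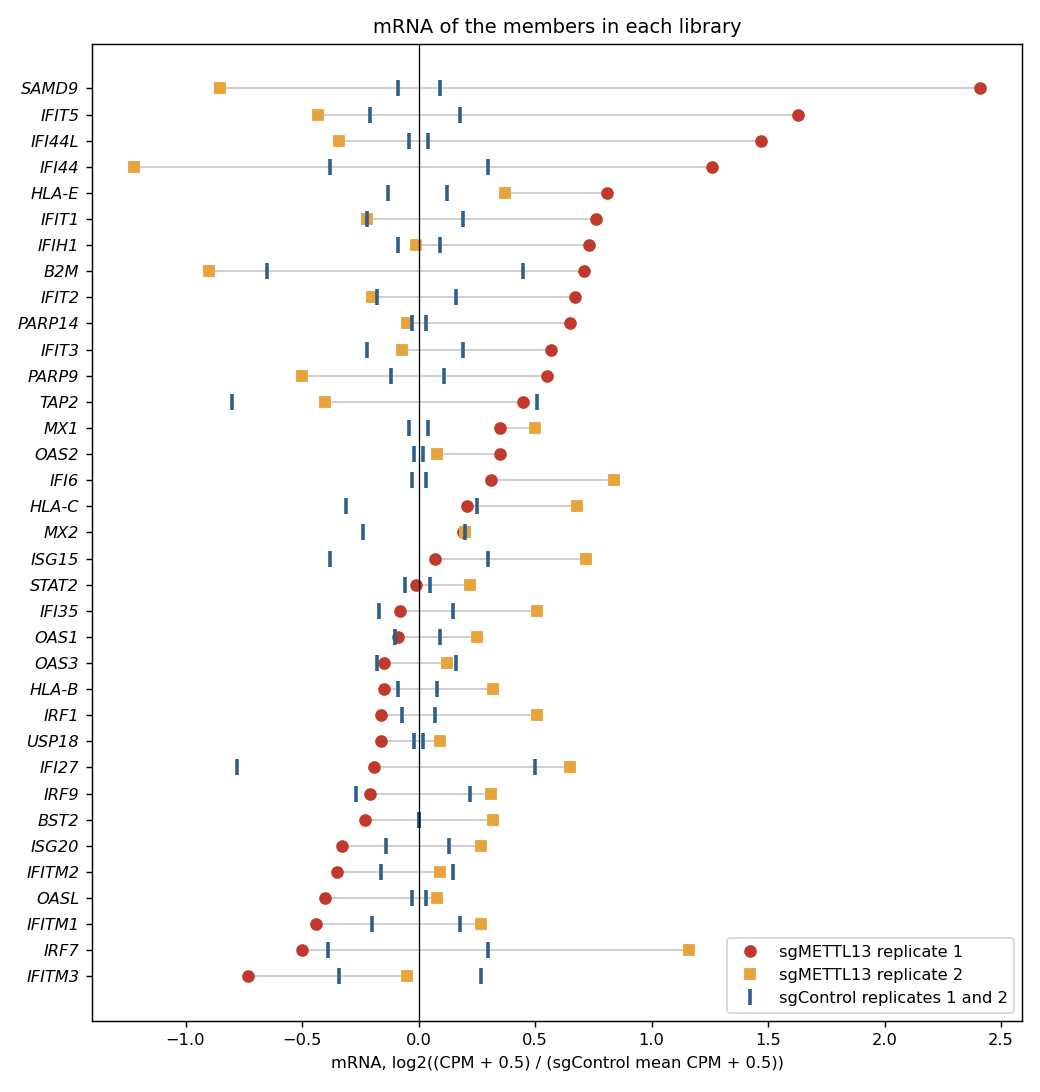
mRNA of each gene in each library, as the log2 ratio to the mean of the 2 sgControl libraries, with 0.5 CPM added to both. Each row is a gene and each dot a library. The 2 sgMETTL13 dots of SAMD9 lie at 2.41 and -0.85 and those of IFI44 at 1.26 and -1.22, on either side of the sgControl dots.

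Translational efficiency, the change in footprints beyond the change in mRNA, passed the test in 0 of 35 genes and in 0 of 10446 genes overall (0%), where DESeq2 called 0 and 5; at an unadjusted p below 0.05 it was 1 of the 35 and 347 of all genes (3.32%). The smallest p was that of HLA-E (log2 difference -1.57, SE 0.535), then HLA-C (-1.05, SE 0.490), IFITM3 (0.80, SE 0.423), HLA-B (0.77, SE 0.512), IFI27 (-1.01, SE 0.742) and MX2 (0.59, SE 0.444), all with an adjusted p of 0.999 by edgeR. HLA-E, HLA-C and HLA-B lie in the chromosome 6 interval with few mRNA counts. IFI27 mRNA was low and scattered, at 1.77 and 3.57 CPM in sgMETTL13 and 3.18 and 1.01 CPM in sgControl. A p above the threshold does not show that efficiency was equal: the SE of these 6 genes ran from 0.423 to 0.742 on the log2 scale.

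The ratio of footprints to mRNA within a gene also varied across the list. The 31 genes of the list outside the chromosome 6 interval with at least 1 footprint CPM had a median log2 ratio of 0.72, against -0.24 over all genes outside it. IFI44 had a ratio of 2.80, IFI6 of 2.08, IFITM2 of 2.02 (at 0.269 mRNA CPM), IFIT2 of 2.0, and SAMD9 and PARP9 of 1.94. For IFI44, same-numbered libraries gave 1.98 and 4.5 in sgMETTL13 and 2.66 and 3.15 in sgControl. For SAMD9 they gave 0.71 and 4.0 in sgMETTL13 and 2.9 and 2.43 in sgControl. At the other end, IFITM3 averaged 61.7 footprint CPM and 1160 mRNA CPM, a log2 ratio of -4.22, lower than in all but 2.28% of genes, with values from -4.89 to -3.55 in the 4 ratios of same-numbered libraries. IFITM3 mRNA had 782 and 1250 CPM in sgMETTL13 and 1025 and 1567 CPM in sgControl, and its neighbour IFITM1 had a ratio of 0.72. Short footprints of these close copies may have been shared or dropped, so the ratios of the IFITM genes are uncertain. OAS3 was also low, at -2.18. No coding lengths were used here, so no order of levels between genes is given.

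Other genes of the pathway gave a mixed picture in footprints. Over all genes tested, 8.94% rose and 12.0% fell. Of 17 receptors, kinases and regulators tested, 2 rose (11.8%, near that share) and 0 fell, and the rises included PIAS1, an inhibitor of STAT signalling (log2 fold change 0.58, SE 0.191, adjusted p = 0.0293). Of 8 nucleic acid sensing genes, 0 passed by edgeR, and 0 had an unadjusted p below 0.05. Of 14 further class I processing genes, 5 rose (35.7%) and 2 fell (14.3%). The rises included both aminopeptidases that trim peptides in the endoplasmic reticulum, ERAP2 (0.73, SE 0.150, adjusted p = 0.000922) and ERAP1 (0.66, SE 0.153, adjusted p = 0.00266), and the proteasome activator subunit PSME2 (0.76, SE 0.165, adjusted p = 0.00169). Of 40 further interferon-stimulated genes, 8 rose (20%) and 5 fell (12.5%, near the share of all genes), and the median log2 fold change was 0.15. The smallest adjusted p were those of the falls of TRIM14 (-0.89, SE 0.167, adjusted p = 0.000406) and TRIM56 (-0.82, SE 0.158, adjusted p = 0.00054), both ubiquitin ligase family members in sensing pathways, the rise of the mitochondrial RNA-degrading enzyme PNPT1 (0.72, SE 0.145, adjusted p = 0.000827) and the fall of PARP10 (-0.72, SE 0.164, adjusted p = 0.00251). No gene of these lists passed in mRNA or efficiency. The footprint calls of these other genes were not followed one by one under other settings, unlike those of the main list. Of the interferon genes, IFNB1 had no footprint in any library, IFNL1 had 0.102 and 0.329 footprint CPM in sgMETTL13 and 0 in both sgControl libraries, and IFNE had 0 in both sgMETTL13 libraries and 0.242 and 0 CPM in sgControl, all within the 0.495 CPM that a count of 0 allows in the shallowest footprint library.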

How the data were processed

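The authors deposited a table of raw gene counts for 8 libraries. The submitters' processing notes name HISAT2 2.0.4, Bowtie 1.2.2, cutadapt 1.18, UMI-tools and featureCounts with hg38, with no role or order given. Treatment of reads with several matches, the annotation and the strand setting are not given in the sources used here. RNA libraries were stranded poly(A) with paired-end reads of 150 bp, and ribosomes were pulled down with a puromycin analog, per the labels' protocols.

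The genes and lists were chosen with earlier results of these data known. The quasi-likelihood F test of edgeR 4.0.16 (in R 4.3.3) was run on the 4 libraries of each assay, after TMM normalisation and filterByExpr with default settings. Efficiency was the interaction of arm and assay over all 8 libraries. P-values were adjusted by Benjamini-Hochberg over all genes tested, with a threshold of 0.05. SE is the log2 fold change divided by the root of F. The biological coefficient of variation common to all genes was 0.0992 in footprints, 0.337 in mRNA and 0.261 in the joint model. Each fit was also run on simulated counts, with 200 changed genes and the same spread for all genes. The libraries here differ in spread, so that run does not bear on the calls given here. DESeq2 1.42.0, limma 3.58.1 (voom), other factors and filters, and fits without each library were alternatives.

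Depth gives a floor of 3 counts for a count of 0, at most 0.495 CPM in footprints and 0.144 CPM in mRNA, for counting error only. All genes of the list were described by role; values per library were given for those past a test, for the class I, transcription factor, IFIT and IFITM genes that passed the footprint filter, and for the 6 smallest p in mRNA and efficiency, and of each other list up to 4 genes past a test were named. Names outside that rule were chosen after their values were seen. Some genes named by that rule are left out here. All 14668 symbols matched the RefSeq table of GRCh38.p14, the source of coordinates and promoters. A planned comparison of protein sequences within the IFITM and HLA genes was not run.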

Additional observations from a re-analysis of the deposited data

How the results depend on the processing

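The 36 genes tested in footprints gave 467 values under other settings, of which 389 kept direction and side of the threshold, 60 lost a call, 10 gained one and 8 changed sign. For the 15 genes followed in mRNA, 155 of 176 values were unchanged in that sense, 7 gained a call and 14 changed sign; for the 6 followed in efficiency, 83 of 85 were unchanged and 2 gained a call. With DESeq2, the footprint count was 5 genes of the list and 1479 of all genes, and efficiency was called in 5 genes overall. One model over all 8 libraries called 0 genes of the list and 0 of all genes in footprints. Upper-quartile factors called 1 gene overall in mRNA. Leaving out each library gave 3 to 12 genes of the list and 701 to 3018 of all genes in footprints, 0 to 7 and 0 to 2509 in mRNA, and 0 to 5 and 0 to 1384 in efficiency. A fit with 1 library left in an arm assumes that it varies like the other groups.

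Shared replicate numbers are not said to mark a shared culture or day. The replicate gaps of the arms correlated at -0.194 in footprints and 0.435 in mRNA over 10446 genes. With the number as a replicate block, 7 genes of the list and 1729 of all genes were called in footprints, and 0 of the list in mRNA and efficiency. Crossed numbers, added after the data were seen, gave 17 and 3220 calls in footprints.

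Some log2 fold changes turned sign. IFIT2 footprints were 0.00048 with upper-quartile factors and 0.01 without a filter, and B2M mRNA was -0.02 with voom and -0.02 with upper-quartile factors. With a library left out, footprint log2 fold changes ran from -0.26 to 0.05 for BST2, -0.22 to 0.12 for IFI35, -0.22 to 0.18 for IFIT2, -0.37 to 0.67 for IFITM2 and -0.03 to 0.10 for OAS3. In mRNA they ran from -0.84 to 0.77 for B2M, -0.20 to 0.51 for HLA-B, -1.21 to 1.28 for IFI44, -0.16 to 0.76 for IFIT1, -0.38 to 1.66 for IFIT5, -0.44 to 0.34 for IFITM1, -0.73 to 0.02 for IFITM3, -0.58 to 1.28 for IRF7, -0.81 to 2.43 for SAMD9 and -0.31 to 1.56 for IFI44L. The cause was not tested.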

Other observations

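The response element was also counted in genes outside the list. Of 346 other genes tested in footprints with the element in a promoter window, 11.3% rose and 12.7% fell in sgMETTL13 relative to sgControl, with a median log2 fold change of 0.01. Of 8506 other genes without it, 8.85% rose and 11.7% fell, with a median of 0.01. Among the 19 with 2 or more matches, 2 rose and 1 fell.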
